A study of Mus musculus with 8 samples.

Results

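Snora16a and Snora24 are small nucleolar RNAs (snoRNAs) of the H/ACA class, and fragments of both were listed among the piRNA names of mouse sperm. The names described here are those with a listed position inside a window around Snora16a and its host gene Snhg12 on chromosome 4 or inside a window around Snora24 on chromosome 3 (mm10). That gave 39 of 13450 names in the table of control and MC-LR libraries and 33 of 17375 in the table of shRNA libraries, and all 33 were among the 39. The loci were selected on their levels in the MC-LR comparison, where piR-mmu-1461305 on Snora16a and piR-mmu-2360037 on Snora24 were among the most strongly lowered snoRNA names, so their values there are a description without a test. Of the 39 names, 13 lay on Snora16a and 11 on Snora24. The chromosome 4 window also took in the other snoRNAs that Snhg12 carries, with 4 names on Snora44, 1 on Snora61 and 10 on Snord99, and 0 names lay outside these snoRNAs. In the shRNA table the counts were 9, 11, 4, 1 and 8 in the same order.

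Small RNA was sequenced from sperm of Balb/c mice aged 8 months, in 4 groups of 2 libraries, lettered A and B. The first table holds a control group and a group exposed to MC-LR (microcystin-LR, a toxin made by cyanobacteria and known to block the phosphatases PP1 and PP2A). The second holds a negative-control shRNA group and a group with an shRNA against Hsp90aa1, the gene of the chaperone HSP90 alpha. The series' design text speaks of 2 MC-LR doses, but no label gives a dose or says whether MC-LR libraries A and B share one. They were treated as 1 group, and their mean and SD would span both doses if they do not. The labels also give no delivery route for the shRNAs. They also do not say whether libraries A and B stem from different mice, and the p-values given here therefore reflect library-to-library spread that could be technical. The tables list small RNA names, so the level of Hsp90aa1 mRNA was not analysed here.

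H/ACA snoRNAs guide the conversion of uridine to pseudouridine in other RNAs, chiefly ribosomal RNA, as part of a particle with the enzyme dyskerin. They fold into hairpins joined by a hinge (the H box) and end in a short tail with the triplet ACA. C/D snoRNAs, such as Snord99, instead guide methylation of the ribose and carry a C box and a D box. Most mammalian snoRNAs are cut out of introns of host genes, and Snhg12 and Snhg8 are long noncoding RNA genes known mainly as such hosts. piRNAs, by contrast, are small RNAs of germ cells that bind PIWI proteins.

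In the GENCODE M21 annotation of GRCm38 (mm10), Snora16a (ENSMUSG00000105911.1) lies on the plus strand of chromosome 4 at 132309464-132309600 (a second GENCODE entry, ENSMUSG00000065097.1, starts at 132309465), within Snhg12 at 132308623-132311024. It falls in an intron of 6 of the 10 annotated Snhg12 transcripts and wholly in an exon of 2. Snora24 (ENSMUSG00000092730.1) lies on the minus strand of chromosome 3 at 123507937-123508066, within Snhg8 at 123507552-123508404, in an intron of 2 of 3 Snhg8 transcripts and in an exon of the remaining one. The sequences below show why the names of each RNA belong together: capitals in the full snoRNAs mark every base covered by at least 1 listed name, in a stretch at each end of both RNAs.
Snora16a: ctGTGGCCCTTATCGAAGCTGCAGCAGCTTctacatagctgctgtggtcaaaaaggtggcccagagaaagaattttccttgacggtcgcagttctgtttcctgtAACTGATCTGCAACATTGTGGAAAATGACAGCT
Snora24: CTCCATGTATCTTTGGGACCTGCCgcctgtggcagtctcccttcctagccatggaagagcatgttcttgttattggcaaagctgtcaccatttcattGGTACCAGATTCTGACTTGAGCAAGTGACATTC
The names covered 61 of the 137 bases of Snora16a and 57 of the 130 bases of Snora24.

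Within each RNA the names formed a nested series with a common 3′ end. The next lines show 3 names of each series, from short to long or as neighbours in length, with the ACA triplet in capitals.
piR-mmu-49936004 (Snora16a): attgtggaaaatgACAgct
piR-mmu-4775345 (Snora16a): tgcaacattgtggaaaatgACAgct
piR-mmu-67680963 (Snora16a): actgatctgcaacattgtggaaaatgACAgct
piR-mmu-64283532 (Snora24): gattctgacttgagcaagtgACAttc
piR-mmu-2360037 (Snora24): agattctgacttgagcaagtgACAttc
piR-mmu-10701550 (Snora24): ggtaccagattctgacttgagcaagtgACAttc
On Snora16a, 12 of 13 names ended within 1 base of the annotated 3′ end, and they held 99.5% of the control level of that RNA. On Snora24 the count was 10 of 11 names, with 96.7% of the level. All of these names held the ACA triplet, and the remaining name of each RNA, piR-mmu-9259143 on Snora16a and piR-mmu-20544620 on Snora24, lay near the 5′ end.

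**Figure D1:**
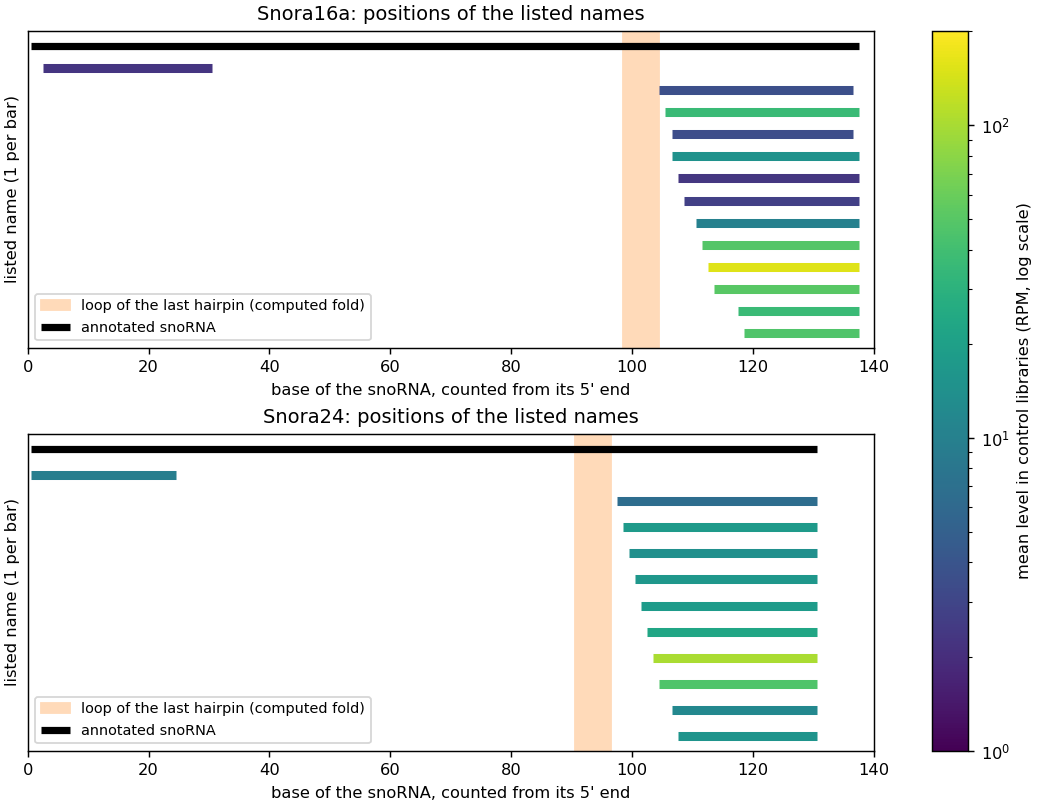
Listed names along Snora16a and Snora24, by base from the 5′ end of each snoRNA (x axis), 1 bar per name, coloured by the mean RPM of the 2 control libraries on a log scale; the shaded band is the loop of the last hairpin in a computed fold. In Snora16a 12 of 13 names and in Snora24 10 of 11 names stop within 1 base of the 3′ end and start after that loop.

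The starts of the 3′ names lay at bases 105 to 119 of Snora16a and 98 to 108 of Snora24. In a fold computed with RNAfold, which is not a measurement, the loop of the last hairpin spanned bases 99 to 104 of Snora16a and 91 to 96 of Snora24. All 12 and all 10 names thus started after the loop and ran through the 3′ side of the last hairpin, in whole or in part, to the tail. The 13 Snora16a names began with A in 3, C in 4, G in 3 and T in 3, and the 11 Snora24 names with A in 2, C in 3, G in 3 and T in 3. In a nested series with a common 3′ end the first bases follow the local sequence, so these counts cannot show a preference.

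The share of names at the 3′ end was also counted on other snoRNAs. In the MC-LR table, 57 of 112 names on other H/ACA genes (50.9%) and 222 of 1024 names on C/D genes (21.7%) ended within 1 base of the 3′ end. By level, these names held 50.9% of the other H/ACA and 20.4% of the C/D RPM in control libraries. In negative-control shRNA libraries the shares of the level were 21.9% and 12.9%. Ends were taken from GENCODE and can differ from those of RefSeq, as for Snord99 below, so the shares of both classes also rest on the annotation. These shares are descriptions, since names on an RNA overlap and are not independent. ACA stood 3 bases before the end in 35 of the 42 annotated Snora genes with a GENCODE transcript (83.3%) and in 0 of 98 Snord genes.

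The other RNAs of Snhg12 varied in layout. Snora44 (132309941-132310069) lacks ACA at that position, and 3 of its 4 names began at its first base. Snora61 (132310240-132310369) had a single name of 33 nt that held ACA and ran to its 3′ end, as most names of Snora16a and Snora24 did. The 10 names of Snord99 (132310691-132310764) all stopped 3 to 6 bases before its GENCODE end, and 6 of them at 132310758, where RefSeq (GRCm38) ends the gene. They lay in its 3′ part, and the full RNA is printed to show it, again with covered bases in capitals.
Snord99: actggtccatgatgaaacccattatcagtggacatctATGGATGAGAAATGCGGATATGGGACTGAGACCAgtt
All 10 Snord99 names held CTGA, the letters of the D box, which stood in the last 20 bases of 96 of 98 Snord genes and of 5 of 42 Snora genes. Of the 10 names, 9 began with A and 1 with G.

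Each of the 39 sequences was found in GENCODE transcripts only within its snoRNA and the host, Snhg12 or Snhg8. One name, the 19-nt piR-mmu-49936004 of Snora16a, was also listed with the same values on the minus strand of chromosome 8 at 30353953-30353971, and which of the places its reads stem from cannot be told apart. Outside the windows, the nearest listed names of the MC-LR table were 38.5 kb and 41.4 kb away on chromosome 4 and 389 kb or more away on chromosome 3.

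Values are RPM, scaled by the authors in each library to a total whose definition is not given in the sources used here. The totals recovered from the values were 4960467 to 14634370 reads, and the listed names summed to 35.3% to 38.1% of them in control libraries, 11.7% to 12.5% under MC-LR, 27.8% to 32.5% with the negative-control shRNA and 3.18% to 4.98% with the Hsp90aa1 shRNA. Of 15 germ-cell microRNA genes checked as markers, 0 had a listed name in the MC-LR table and 13 in the shRNA table, where their summed level was 8505 and 13396 RPM in the negative-control and 2993 and 823 RPM in the Hsp90aa1 libraries. All 5 epithelial microRNA genes were listed in both tables, at 4690 to 6388 RPM in control and 2408 to 2490 RPM in MC-LR libraries, and at 2591 to 3801 RPM in negative-control and 110 to 399 RPM in Hsp90aa1 shRNA libraries. Smooth-muscle markers were listed for 2 of 3 genes, blood markers for 2 of 4 and the endothelial marker for 1 of 1 in each table, and all 3 lists were lower in both treated groups. Smooth-muscle markers summed to 219 to 297 RPM in control and 108 to 133 RPM in MC-LR libraries, and to 3682 to 7180 RPM in negative-control and 219 to 1023 RPM in Hsp90aa1 libraries. Blood markers summed to 5.53 to 8.87 against 2.19 to 3.96 RPM and to 272 to 405 against 43.7 to 56.2 RPM. The endothelial marker stood at 133 to 202 against 57.2 to 89.8 RPM and at 48.5 to 92.7 against 13.8 to 17.1 RPM. A gene without a listed name is not thereby absent from the RNA. The part of other cells' RNA in the results below was not tested, and fewer cells of a type cannot be told apart from less RNA per cell.

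Snora16a was the most abundant of the 5 RNAs in control sperm. Its 13 names summed to 433 RPM (A) and 392 RPM (B) in the control group and to 33.0 RPM (A) and 38.1 RPM (B) in the MC-LR group. The groups lay far apart, with means of 412 ± 29.1 and 35.5 ± 3.62 RPM (SD, n = 2), 11.6-fold lower under MC-LR or -3.54 on the log2 scale. Snora24 summed to 292 and 269 RPM in control and to 22.7 and 20.4 RPM in MC-LR libraries, 280 ± 16.1 against 21.6 ± 1.63 RPM (SD, n = 2), which was 13.0-fold lower or -3.70 on the log2 scale. Both exceeded the difference of the whole list, whose sum differed by -1.60 and whose median name by -1.66.

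Snord99 differed less and varied more between its control libraries. It stood at 195 and 115 RPM in control and at 32.5 and 21.3 RPM in MC-LR libraries, -2.53 on the log2 scale. Snora44 stood at 37.2 and 28.2 RPM against 5.39 and 4.12 RPM, a difference of -2.78. Snora61 stood at 3.83 and 6.45 RPM against 1.01 and 0.915 RPM, a difference of -2.42 that rests on 6 reads in each MC-LR library. The groups did not overlap for any of the 5 RNAs, which says little where 92.6% of all names of this table had both MC-LR libraries below both control libraries. The medians over names were -2.55 for the 125 names of other H/ACA RNAs and -2.64 for 1050 names of other C/D RNAs, beside -2.97 for Snora16a and -3.24 for Snora24.

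**Figure D2:**
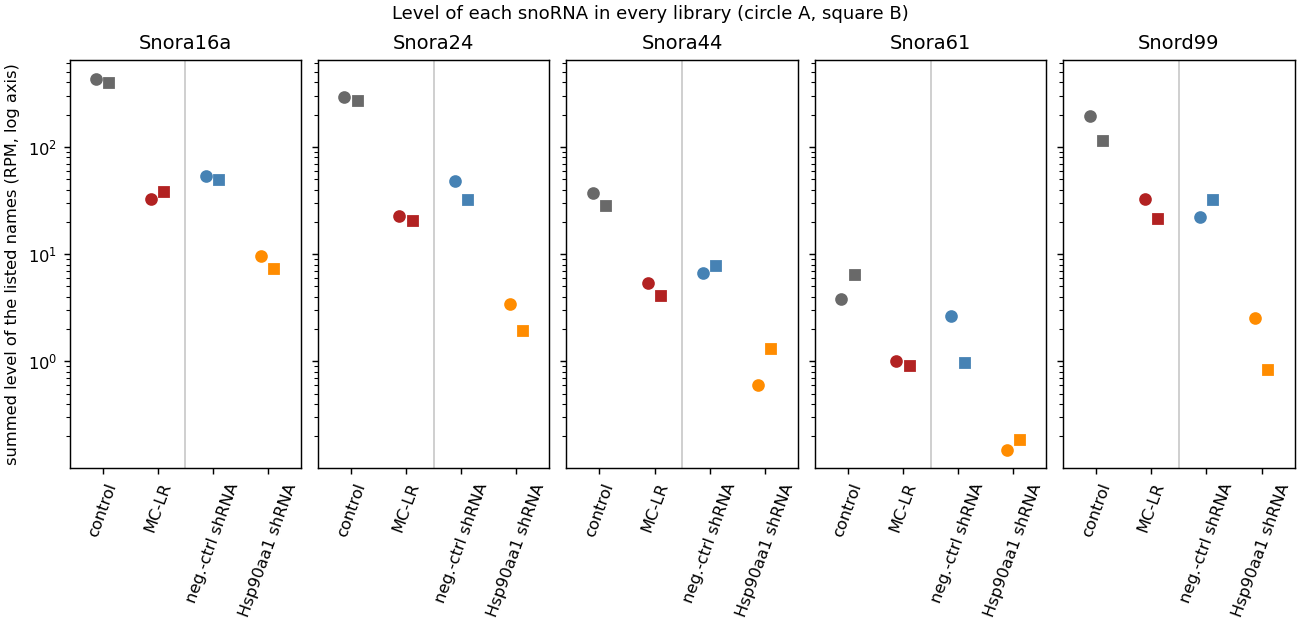
Summed RPM of the listed names of each snoRNA (log axis) in all 8 libraries, 1 point per library, circles for A and squares for B; the grey line parts the 2 tables, which were scaled separately. Snora16a stands at 392 to 433 RPM in control and 33.0 to 38.1 RPM in MC-LR libraries, and no RNA has overlapping groups within a table. Of all single names, 92.6% in the MC-LR table and 99.8% in the shRNA table had both treated libraries below both of the other group.

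Scaling sets the size of these differences. Scaled within the listed names by TMM factors (trimmed mean of M-values, which centre the bulk of the names), Snora16a differed by -1.83 and Snora24 by -1.99 between MC-LR and control, still lower in both.

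The names of Snora16a spanned a wide range under MC-LR. Its most abundant name, the 25-nt piR-mmu-4775345, stood at 160 and 150 RPM in control and 6.06 and 12.5 RPM in MC-LR libraries, 16.7-fold lower. The 26-nt piR-mmu-1461305, longer by 1 base at its 5′ end, stood at 47.4 and 48.6 RPM in control and 1.35 and 1.22 RPM in MC-LR libraries. That was the deepest difference of all 39 names, -5.23 on the log2 scale or 37.4-fold, and the sixth lowest log2 ratio (rank 6) of the 13450 names. It rests on 8 reads in each MC-LR library, with a ratio of pooled counts of 0.0268 (95% counting interval 0.0153 to 0.0438). The 24-nt piR-mmu-49305354 stood at 58.5 and 43.5 RPM against 3.53 and 3.35 RPM, a difference of -3.89. At the other end, the 29-nt piR-mmu-58445546 stood at 2.19 and 3.23 RPM against 0.673 and 1.07 RPM, -1.64, close to the list median.

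The short end of the series differed less. The 19-nt piR-mmu-49936004 stood at 64.9 and 27.6 RPM in control and 9.26 and 7.16 RPM in MC-LR libraries, -2.49. The 20-nt piR-mmu-49905406 stood at 55.2 and 17.7 RPM against 5.22 and 4.12 RPM, -2.97. Both were higher in control A than in control B by more than 2-fold, while the 32-nt piR-mmu-67680963 was lower in control A (15.8 RPM) than in B (56.8 RPM), against 3.53 and 4.12 RPM under MC-LR. The whole list differed in the same direction, with 18.2% of its RPM in names of 29 to 33 nt in control A and 33.6% in control B. The part of this length difference between libraries in the results was not tested.

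In Snora24 the leading name was the 27-nt piR-mmu-2360037, at 107 and 95.8 RPM in control and 4.88 and 4.42 RPM in MC-LR libraries. Its difference of -4.45, or 21.8-fold, was the deepest of that RNA and ranked 52 of 13450. The 26-nt piR-mmu-64283532 stood at 50.8 and 42.7 RPM against 3.37 and 1.83 RPM, -4.17. The 28-nt piR-mmu-16123502 stood at 25.6 and 20.8 RPM against 2.02 and 1.98 RPM, -3.53. The 33-nt piR-mmu-10701550 had the shallowest difference, at 3.42 and 9.47 RPM against 0.673 and 1.68 RPM, -2.46. In both RNAs the names at the abundance peak differed more than names several bases longer, and the deepest name of each RNA is one of those that led to the choice of the locus.

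On Snord99 the 20-nt piR-mmu-50363600 stood at 46.5 and 27.4 RPM in control and 5.72 and 4.57 RPM in MC-LR libraries, -2.84. The 21-nt piR-mmu-49511392 had the shallowest difference of that RNA, at 40.7 and 19.96 RPM against 9.76 and 4.88 RPM, -2.05. The 18-nt piR-mmu-50752054 stood at 37.4 and 10.1 RPM against 5.22 and 3.66 RPM, -2.42, and like the short Snora16a names it was higher in control A than in control B. The 24-nt piR-mmu-15701863 had the deepest difference, at 11.6 and 5.64 RPM against 0.842 and 0.305 RPM, -3.91. On Snora44 the 25-nt piR-mmu-12157651 stood at 17.4 and 11.5 RPM against 3.70 and 3.05 RPM, -2.10, and the 24-nt piR-mmu-12157650 at 6.49 and 5.24 RPM against 1.01 and 0.305 RPM, -3.16. Both start at the first base of Snora44. Its name at the 3′ end, piR-mmu-6008167, stood at 10.5 and 9.07 RPM against 0.505 and 0.305 RPM, or 3 and 2 reads, -4.59.

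Shares within an RNA, which do not depend on the library scale, were lower at the abundance peak under MC-LR. The 26-nt name held 11.0% and 12.4% of Snora16a in control and 4.08% and 3.20% in MC-LR libraries. The 25-nt name held 37.0% and 38.2% in control against 18.4% and 32.8% under MC-LR, lower in both libraries but with a wide spread. In Snora24 the 27-nt name held 36.6% and 35.6% in control and 21.5% and 21.6% under MC-LR. The names of 29 to 33 nt held 22.6% and 29.3% of Snora24 in control and 37.8% and 48.5% under MC-LR. The groups did not overlap for these 4 shares, which were noticed after the values were seen and which belong to the comparison that chose the loci. Nor did they overlap for the shares of most single names of both RNAs, so this does not set the 4 apart. Among those, the 19-nt name of Snora16a held 15.0% and 7.05% in control and 28.1% and 18.8% under MC-LR, a higher share. Names of 29 to 33 nt held 7.89% and 23.6% of Snora16a in control and 18.9% and 22.0% under MC-LR, where the groups overlapped. In the shRNA table this range of lengths held 47.8% and 31.3% of Snora24 in negative-control and 41.3% and 38.1% in Hsp90aa1 libraries, which overlapped too. There the 27-nt name held 19.5% and 22.9% of Snora24 in negative-control and 17.4% and 14.3% in Hsp90aa1 libraries, the latter from 8 and 3 reads. The 26-nt name held 11.6% and 9.55% of Snora16a there against 6.98% and 16.7%, and those groups overlapped.

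**Figure D3:**
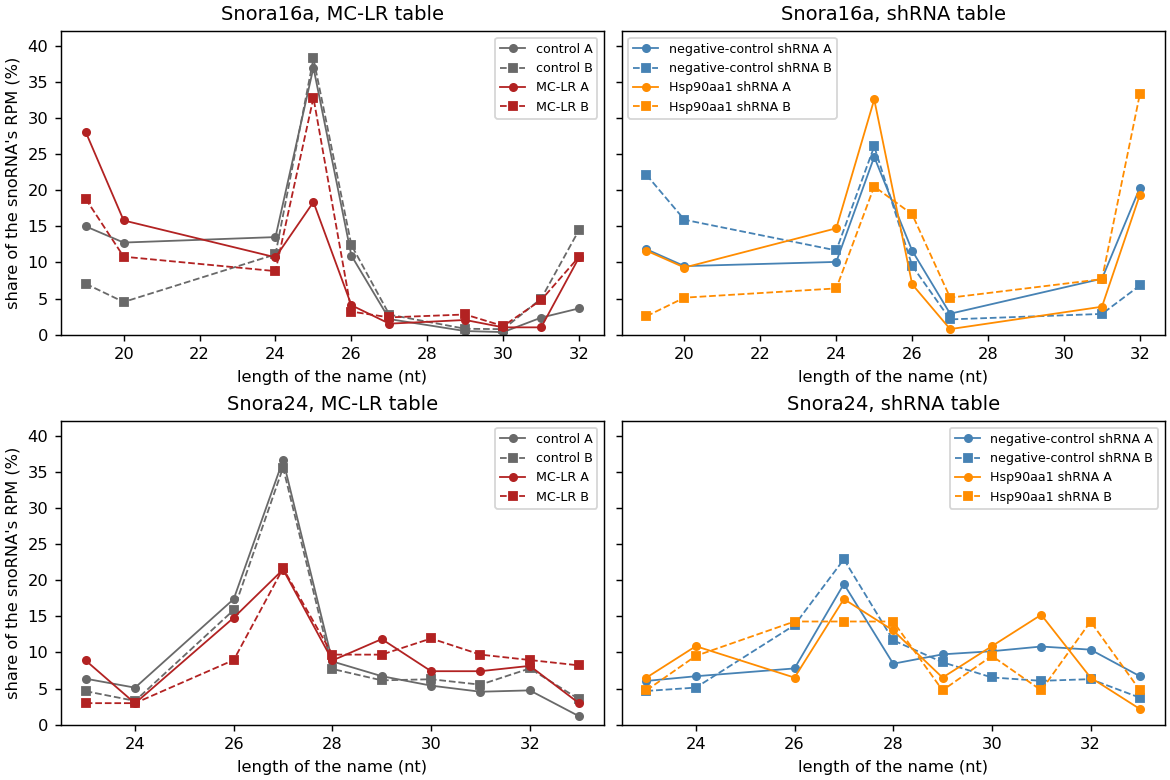
Share of each snoRNA's RPM (y axis, %) held by the names that end at its last base, by name length in nt (x axis), 1 line per library, solid for A and dashed for B. The 27-nt name of Snora24 stands at 35.6% and 36.6% in control and 21.5% and 21.6% in MC-LR libraries, and at 19.5% and 22.9% in negative-control and 17.4% and 14.3% in Hsp90aa1 shRNA libraries.

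All 39 names had both MC-LR libraries below both control libraries, beside the 92.6% of all names of that table. Since the loci were selected on this comparison, nothing is read from that count. The log2 ratios ran from -5.23 to -1.64 with a median of -2.99, and 38 of 39 lay below the median of all names.

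The nested names were not counted inside each other. A read of the 25-nt piR-mmu-4775345 contains the whole 19-nt piR-mmu-49936004, yet in control A the shorter name had 64.9 RPM and the longer 160 RPM. A count of every contained match would have given the shorter name the higher value.

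The shRNA comparison was not the one that chose the loci, though its results for the whole list were known. Snora16a summed to 53.1 and 49.3 RPM in negative-control libraries A and B and to 9.66 and 7.20 RPM in Hsp90aa1 shRNA libraries A and B, 51.2 ± 2.70 against 8.43 ± 1.74 RPM (SD, n = 2). It was 6.08-fold lower with the Hsp90aa1 shRNA, -2.60 on the log2 scale. Snora24 summed to 47.6 and 32.0 RPM against 3.44 and 1.94 RPM, 39.8 ± 11.0 against 2.69 ± 1.06 RPM (SD, n = 2), 14.8-fold lower or -3.89. The groups did not overlap for either RNA, which says little where 99.8% of all names of this table had both Hsp90aa1 libraries below both negative-control libraries. An exact two-sided permutation test over 2 against 2 libraries can give no p below 0.33. The sum of all listed names differed by -2.89, so Snora16a lay above the list and Snora24 below it. The sums of other H/ACA RNAs (-3.66) and other C/D RNAs (-3.50) also lay below it.

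Snord99 stood at 22.2 and 31.8 RPM against 2.54 and 0.831 RPM, -4.00. That value rests on the Hsp90aa1 libraries, with -5.02 without A and -3.41 without B. Snora44 stood at 6.69 and 7.70 RPM against 0.599 and 1.29 RPM, -2.93, and at -3.59 without Hsp90aa1 library B. Snora61 stood at 2.68 and 0.972 RPM against 0.150 and 0.185 RPM, from 2 reads in each Hsp90aa1 library, with a ratio of pooled counts of 0.0979 (95% counting interval 0.0254 to 0.271). Its log2 ratio of -3.45 was -2.54 without negative-control library A.

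Fitted with limma on log2(RPM + 1), a scale that understates the change of low names, 32 member names could be tested and 32 fell at an adjusted p under 0.05, beside 99.5% of all names tested in that direction. All 33 had both Hsp90aa1 libraries below both negative-control libraries, beside 99.8% of all names. Neither count sets the snoRNA names apart from the list. Of the lists compared, 87 of 87 tested names of other H/ACA RNAs and 858 of 858 of other C/D RNAs fell. The name that was not tested, piR-mmu-6008167 of Snora44, had a mean under 1 RPM in both groups.

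By log2 ratio of group means the 2 RNAs stood on opposite sides of the list median of -2.86. Of the Snora16a names 3 of 9 lay below it, against 11 of 11 Snora24 names and 8 of 8 Snord99 names. The medians were -2.56 for Snora16a, -3.80 for Snora24 and -3.87 for Snord99. Beside them stood -3.14 for the 96 names of other H/ACA RNAs and -3.30 for 881 names of other C/D RNAs. Both classes thus lay below the list median too, so a place below it is not particular to Snora24 or Snord99. Scaled within the list by TMM factors, which moved the median fitted change of all names from -1.66 to -0.02, the log2 ratio of the sum turned to 0.24 for Snora16a and 0.026 for Snora44, while Snora24 stayed lower at -1.07. Under that scaling 0 of 19 testable member names passed the limma threshold, beside 17 lower and 33 higher of all 13443 names tested. At an unadjusted p under 0.05, 3 member names were lower, beside 1201 of all names. edgeR with TMM factors passed 0 of 32, beside 21 lower and 37 higher of 16859, with 3 lower at an unadjusted p under 0.05, beside 1183. DESeq2, which gave an adjusted p for 2 member names, passed 0, beside 133 lower and 34 higher of all names. It had 1 lower at an unadjusted p under 0.05, beside 781. The calls thus ended for nearly the whole list, and these counts do not set the member names apart.

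**Figure D4:**
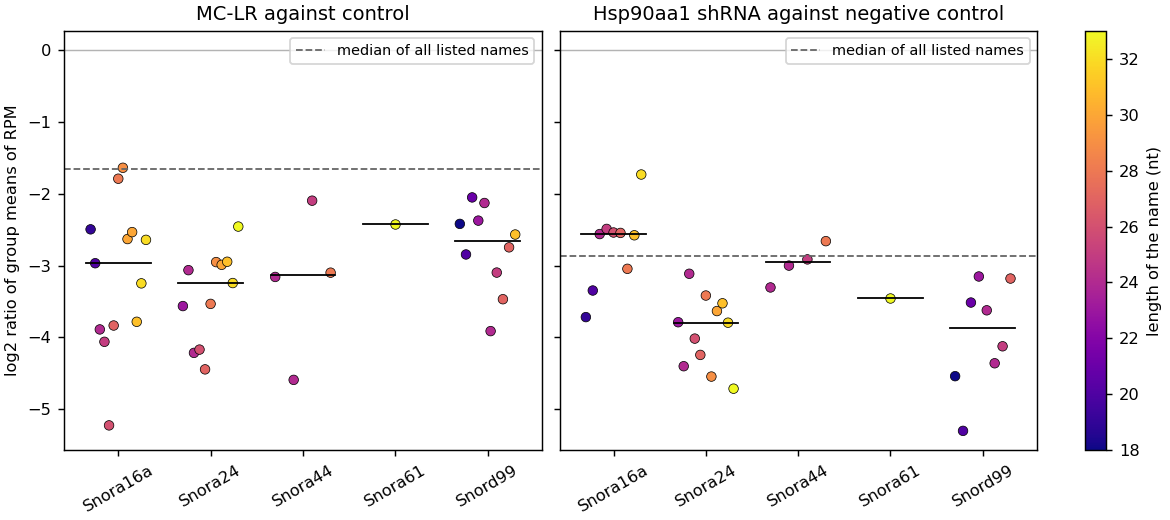
Log2 ratio of group means of RPM for each name (points, ordered and coloured by length in nt) in the MC-LR comparison and the Hsp90aa1 shRNA comparison; short black lines are the median of each snoRNA and dashed lines the median of all listed names. In the shRNA panel 3 of 9 Snora16a names lie below the dashed line and all 11 Snora24 names do. The medians of other H/ACA and other C/D names there, which are not drawn, were -3.14 and -3.30.

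Among Snora16a names, the 25-nt piR-mmu-4775345 had 13.1 and 12.9 RPM in negative-control and 3.14 and 1.48 RPM in Hsp90aa1 libraries. It fell by 2.12 on the log2(RPM + 1) scale (SE 0.45, limma adjusted p = 0.00165). The 19-nt piR-mmu-49936004 had 6.28 and 10.9 RPM against 1.12 and 0.185 RPM and fell by 2.55 (SE 0.43, limma adjusted p = 7.89e-04). The 32-nt piR-mmu-67680963 had 10.8 and 3.36 RPM against 1.87 and 2.40 RPM, and fell by 1.20 (SE 0.50, limma adjusted p = 0.0391). This last call rests on single libraries: without negative-control library A the change was -0.48 (limma adjusted p = 0.414), without Hsp90aa1 library A -1.08 (0.0988) and without Hsp90aa1 library B -1.32 (0.0508). The 26-nt piR-mmu-1461305, the deepest name under MC-LR, had 6.18 and 4.71 RPM against 0.674 and 1.20 RPM, a ratio of -2.54 that lay above the list median. The 24-nt piR-mmu-49305354 had 5.36 and 5.75 RPM against 1.42 and 0.462 RPM, a ratio of -2.56. Of the 9 Snora16a names, 6 had a fitted change above 0 under at least 1 of the 3 scalings within the list, piR-mmu-4775345, piR-mmu-67680963, piR-mmu-1461305 and piR-mmu-49305354 among them. These scalings put the median of all names at -0.018 (limma), -0.031 (edgeR) and 0.031 (DESeq2), so many other names lay above 0 too. Names above 0 were not counted over the whole list, and the count of 6 does not set Snora16a apart.

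Among Snora24 names, the 27-nt piR-mmu-2360037 had 9.27 and 7.32 RPM in negative-control and 0.599 and 0.277 RPM in Hsp90aa1 libraries. It fell by 2.69 (SE 0.36, limma adjusted p = 5.70e-04). The 26-nt piR-mmu-64283532 had 3.71 and 4.41 RPM against 0.225 and 0.277 RPM, and fell by 2.01 (SE 0.29, limma adjusted p = 5.97e-04). The 28-nt piR-mmu-16123502 had 4.02 and 3.74 RPM against 0.449 and 0.277 RPM, a ratio of -3.42. The 33-nt piR-mmu-10701550 had 3.19 and 1.20 RPM and a single read in each Hsp90aa1 library, a ratio of pooled counts of 0.0406 (95% counting interval 0.00478 to 0.155). The 24-nt piR-mmu-11898721 had the shallowest ratio of that RNA, -3.11, at 3.19 and 1.64 RPM against 0.374 and 0.185 RPM.

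On Snord99 the 20-nt piR-mmu-50363600 had 4.43 and 8.07 RPM in negative-control and 0.225 and 0.0923 RPM in Hsp90aa1 libraries, and fell by 2.60 (SE 0.35, limma adjusted p = 5.73e-04). The 21-nt piR-mmu-49511392 had 4.33 and 7.85 RPM against 0.973 and 0.0923 RPM, a ratio of -3.51, and the 18-nt piR-mmu-50752054 had 2.16 and 6.95 RPM against 0.299 and 0.0923 RPM, -4.54. The 23-nt piR-mmu-49348517 had the shallowest ratio of Snord99, -3.15, at 1.54 and 1.27 RPM against 0.225 and 0.0923 RPM. The 24-nt piR-mmu-15701863 had 2.16 and 1.27 RPM and a single read in each Hsp90aa1 library, a ratio of pooled counts of 0.0502 (95% counting interval 0.00587 to 0.194). On Snora44, piR-mmu-12157651 had 3.50 and 4.19 RPM against 0.374 and 0.646 RPM, a ratio of -2.91. The 28-nt piR-mmu-19818545 had 1.24 and 1.57 RPM against 0.0748 and 0.369 RPM, -2.66, and piR-mmu-12157650 had 1.44 and 1.12 RPM against 1 and 2 reads, a ratio of pooled counts of 0.0987 (95% counting interval 0.0192 to 0.319). In negative-control libraries these names were all between 1 and 9 RPM, and in Hsp90aa1 libraries all under 1 RPM.

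Depth limits the shRNA comparison: 15 of 33 had at most 3 reads in both Hsp90aa1 libraries, 17 had a library with 1 read, and the most reads of any was 42. Counting intervals here describe sampling of reads alone and leave out variation between libraries. No information on molecular identifiers was used here.

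The ratio of Snora16a to Snora24 reads within a library needs no scaling. It was chosen after the values were seen, from 10 possible pairs of the 5 RNAs, so it is a description. It was 1.48 and 1.46 in the control group and 1.45 and 1.87 with MC-LR. Over the names listed in both tables these values were 1.46 and 1.40 in control and 1.35 and 1.75 with MC-LR. In the negative-control shRNA libraries the ratio was 1.12 (95% exact counting interval 0.983 to 1.27) and 1.54 (1.36 to 1.75). Those intervals did not overlap within 1 group, so counting intervals understate the spread between libraries. In the Hsp90aa1 shRNA libraries the ratio was 2.80 (95% exact counting interval 1.99 to 4.02) and 3.71 (2.27 to 6.33). The means were 1.33 ± 0.301 and 3.26 ± 0.643 (SD, n = 2) in the shRNA table, and those groups did not overlap. Among names of 24 to 28 nt alone the means were 1.24 and 3.17, and among names at a single locus 1.09 and 3.05. The Snora24 counts behind the Hsp90aa1 values were 46 and 21 reads.

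**Figure D5:**
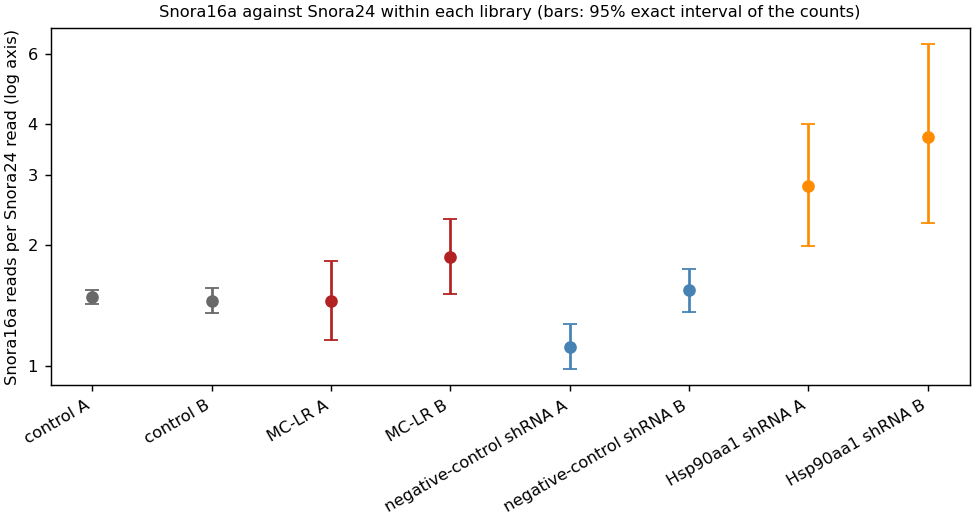
Snora16a reads per Snora24 read (log axis) in each of the 8 libraries; bars are 95% exact intervals of the counts and leave out variation between animals. The Hsp90aa1 shRNA libraries stand at 2.80 and 3.71 and the other 6 libraries at 1.12 to 1.87. Snora16a is summed over 13 names in the MC-LR table and 9 in the shRNA table. Over the names listed in both tables the MC-LR libraries stand at 1.35 and 1.75.

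Over the names present in both tables, the levels of Snora16a were 400 ± 34.6 RPM in control, 51.2 ± 2.70 with the negative-control shRNA, 33.2 ± 3.56 under MC-LR and 8.43 ± 1.74 with the Hsp90aa1 shRNA (SD, n = 2). Snora24 followed the same order at 280 ± 16.1, 39.8 ± 11.0, 21.6 ± 1.63 and 2.69 ± 1.06 RPM. For Snord99 the levels were 143 ± 60.5, 27.0 ± 6.73, 25.3 ± 7.77 and 1.69 ± 1.21 RPM in that order, and the ranges of the negative-control shRNA (22.2 to 31.8 RPM) and MC-LR (19.8 to 30.8 RPM) libraries overlapped. The tables were scaled apart, so the order across them is a listing and not a comparison.

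Across 80 other snoRNA genes with at least 3 names in both tables, the profiles most like Snora16a over the 8 libraries were those of Snora81 (Euclidean distance of centred log2 sums 0.511), Snora69 (0.525) and Snord16a (0.532). Snora81 stood at 155 and 115 RPM in control and 9.76 and 11.9 RPM in MC-LR libraries. Those most like Snora24 were Snord80 (0.412), Snord4a (0.520) and Snord13 (0.725). Snora24 itself ranked 12 in likeness to Snora16a, at a distance of 1.09.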

How the data were processed

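The 8 sperm libraries fall into 4 groups of 2. The authors deposited 2 tables of RPM per piRNA name and locus. The submitters' processing notes name the mm10 build, HTSeq 0.6.0, HISAT2 2.1.0 and Bowtie2 2.2.3. Their roles, the read trimming and the listing rule were not given in the sources used here. Every RPM value was a whole multiple of 1 read (100% within 0.01), which gave back reads and library totals. Starts are 0-based and are printed 1-based. Each name was used once, at its highest row, and assigned to a GENCODE M21 gene by an overlap of at least 0.5 of its length. Sequences come from GENCODE M21 transcripts and folds from RNAfold 2.7.2.

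The shRNA table was fitted with limma 3.58.1 (R 4.3.3; trend, robust) on log2(RPM + 1), keeping names whose mean reached 1 RPM in either group, with Benjamini-Hochberg adjustment over all names at 0.05. edgeR 4.0.16 on the recovered reads with library totals called 16713 names lower and 37 higher. DESeq2 1.42.0 was an alternative. The fit was tested on simulated data in which most names were equal in both groups. That setting differs from this list, where nearly all names were lower, so it does not bear on the calls here. Names printed are, per snoRNA and table, the 3 most abundant and those with the largest and smallest log2 ratio. Some of these were also given in the other table, and piR-mmu-49905406, both 5′ names and the names listed only for their sign under another scaling were named after their values were seen. The members and lists were chosen with earlier results of these data known. Python 3.11.15, pandas 2.3.3, numpy 2.4.6, scipy 1.17.1 and matplotlib 3.10.9 were used.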

Additional observations from a re-analysis of the deposited data

How the results depend on the processing

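With the Hsp90aa1 shRNA, 32 of 32 tested member names fell in limma, beside 16773 of all 16859 names tested. With a pseudocount of 0.1 or 5, 32 and 31 did, beside 16696 and 16605 of all names. Without the filter on low values 33 of 33 did, beside 17286 of 17375. With edgeR on library totals 32 did, beside 16713 of 16859. Without 1 library the median fitted change was -1.28 to -1.81 for member names and -1.57 to -1.75 for all names. Such a fit assumes that the lone library varies like the others. These counts follow the whole list and do not set the member names apart. Scaling within the list ended the calls: 0 member names with TMM factors in limma (of 19 tested, since the filter was applied to rescaled values), 0 in edgeR with TMM factors and 0 in DESeq2, where 30 of 32 had no adjusted p. Of all names, 17 of 13443, 21 of 16859 and 133 of 16859 were called lower in the same order. Under these 3 scalings 8 member names turned above 0 at least once, 6 of Snora16a and 2 of Snora44. The median of all names then lay at -0.018, -0.031 and 0.031 in the same order, so the sign only gives a place relative to the list. Names above 0 were not counted over the whole list. The cause of the place of these 8 names in the list was not tested. piR-mmu-4775345 turned to 0.23, 0.32 and 0.37, piR-mmu-67680963 to 1.01, 1.18 and 1.27, piR-mmu-1461305 to 0.21, 0.34 and 0.45, piR-mmu-49305354 to 0.079, 0.25 and 0.28 and piR-mmu-64139379 to 0.21, 0.30 and 0.40. piR-mmu-67732922 turned to 0.24 in edgeR and 0.42 in DESeq2, piR-mmu-19818545 turned to 0.093 in edgeR and 0.27 in DESeq2, and piR-mmu-12157651 to 0.028 in DESeq2. Summed levels with TMM factors and with each library scaled to its listed sum were 0.24 and 0.29 for Snora16a, 0.026 and 0.14 for Snora44 and -1.07 and -1.05 for Snora24. Under MC-LR the same settings gave -1.83 and -1.93 for Snora16a and -1.99 and -2.10 for Snora24; the most abundant name alone gave -4.06 and -4.45, and Snora16a without its name at more than 1 locus -3.74. The fold of the Snora16a to Snora24 ratio was 2.45, and 2.11 to 2.92 without 1 library.

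The replicate letters share no stated source, and deviations of same-letter libraries correlated at -0.60 in the shRNA table. With the replicate block 31 of 32 member names fell, beside 16252 of all 16859 names, and piR-mmu-67680963 did not (limma adjusted p = 0.0516). With the crossed replicate block, added after the data were seen, 32 fell, beside 16822 of all 16859.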
